A study of Mus musculus with 6 samples.

Results

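Expression of 9 receptor genes through which hormones and nerves act on smooth muscle was examined in primary oviductal smooth muscle cells. They were taken by symbol from the 54232 genes of the count table: the oxytocin receptor Oxtr, the alpha-1 adrenergic receptors Adra1a, Adra1b and Adra1d, the alpha-2 receptor Adra2a, the beta-1 receptor Adrb1, the muscarinic receptors Chrm2 and Chrm3, and the angiotensin II receptor Agtr1a. Cells came from WT mice and from mice that had lost Pbrm1 conditionally (Pbrm1 cKO), with 3 libraries per genotype. PBRM1 belongs to one form of the SWI/SNF complex, which moves nucleosomes on DNA. All mice were 8 to 12 weeks old and had been mated with stud males, and oviducts were taken on day 2 of pregnancy. In the cKO mice, floxed Pbrm1 was deleted by a cre expressed from the progesterone receptor gene, so deletion depended on cells having expressed that gene. The labels call the controls WT, while a legend in the supplement of the study names floxed mice. The tissue was digested with enzymes and filtered, and cells were plated for 4 h, then for 2 h in fresh medium, before RNA was taken. No sort for muscle cells was described, and whether 1 library stands for 1 animal or for a pool is not given in the labels, so the spread between libraries may in part be technical.

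Contraction of smooth muscle is set off when receptors coupled to Gq/11 proteins, such as the oxytocin, alpha-1 adrenergic, M3 muscarinic and angiotensin II receptors, activate phospholipase C and release calcium from stores. Alpha-2 adrenergic and M2 muscarinic receptors couple instead to Gi proteins, which lower cyclic AMP, and beta receptors couple to Gs, which raises it and favours relaxation. In the oviduct, which is richly supplied by adrenergic nerves, muscle contraction takes part in moving the embryo toward the uterus.

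Libraries held 15390818 to 18947947 counts, and a count of 3, taken as the floor, equalled 0.159 to 0.193 CPM (counts divided by the size of the library, in the same unit for all). Mitochondrial genes took 7.95% to 8.24% of the counts in WT and 6.88% to 7.81% in cKO. Pbrm1 itself ranged from 170 to 183 CPM across WT libraries and from 42.7 to 50.7 CPM across cKO libraries, so each library matched its label. Pgr, whose locus carries the cre, averaged 174 ± 3.20 CPM in WT against 168 ± 13.8 CPM in cKO (SD, n = 3).

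Of the 9 receptor genes, 4 were above 1 CPM in all 6 libraries (Oxtr, Adra1b, Adra1d and Adra2a). Chrm3 and Agtr1a were above 1 CPM in the 3 cKO libraries and in 0 of the 3 WT libraries. Adra1a, Adrb1 and Chrm2 were below 1 CPM in every library. A filter on low counts kept 6 of the 9 genes and 15376 genes in all. Of those 6, Oxtr, Chrm3 and Agtr1a were higher and Adra1b, Adra1d and Adra2a lower in cKO (edgeR quasi-likelihood test, adjusted p under 0.05). The background was high: 43.7% of all tested genes passed the same threshold, 21.9% higher and 21.8% lower. Chrm3 passed the filter through its cKO libraries, with 1 of 3 WT libraries over the limit of 0.574 CPM, so the count of 6 does not describe the whole list. In CPM, WT and cKO libraries were fully apart for all 6 tested receptors, against 53.5% of all tested genes. They were apart for 7 of the 9 listed genes, all but Adrb1 and Chrm2, but Adra1a among these was not tested. WT replicate 2 and cKO replicate 1 both had 3 counts of Adra1a, so only library size set those 2 apart.

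**Figure D1:**
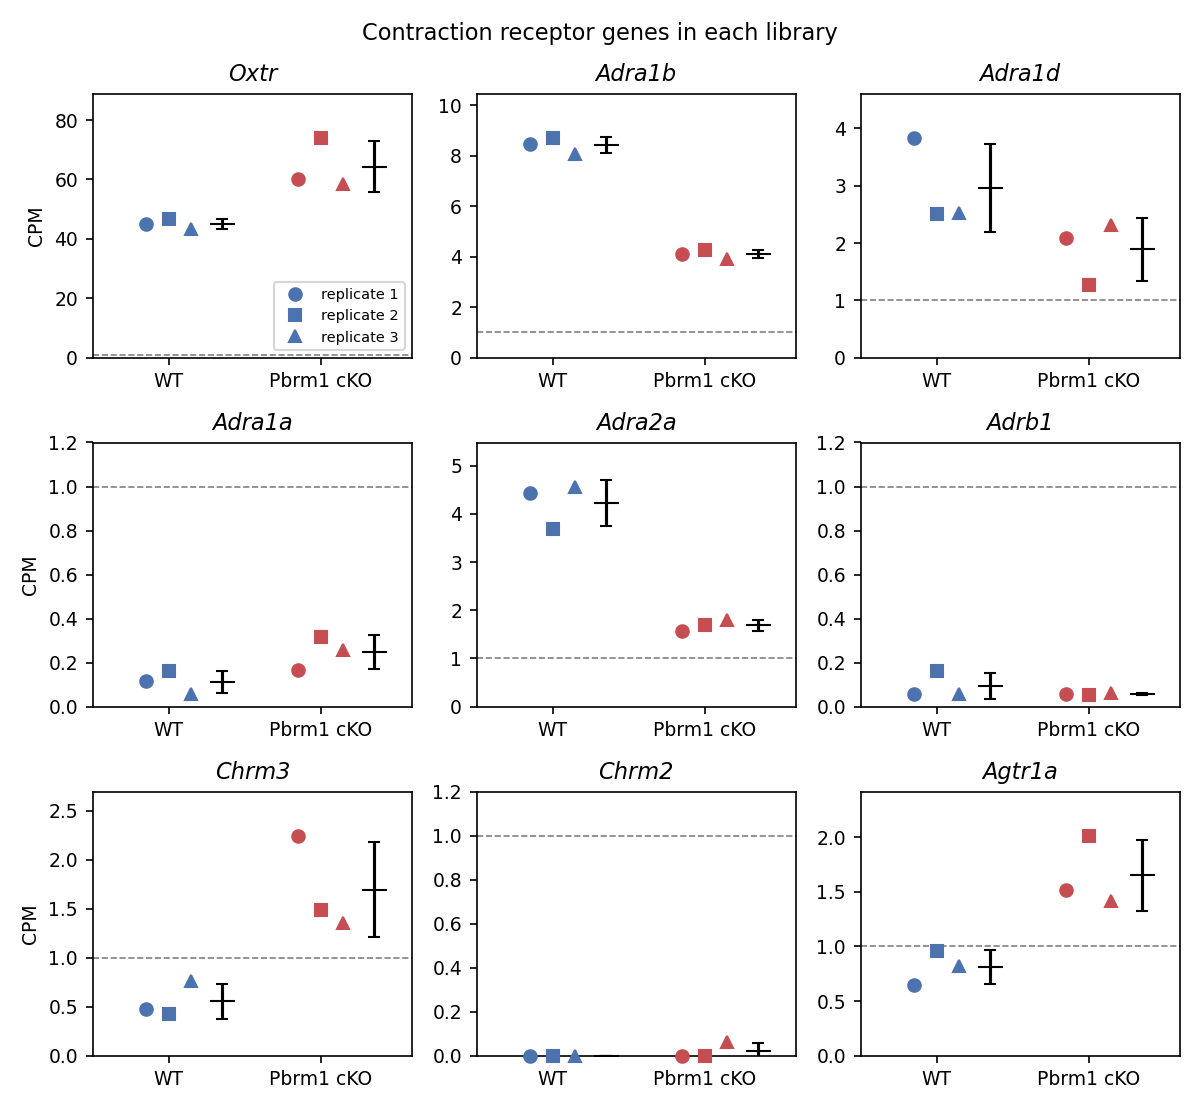
CPM of the 9 receptor genes (y axis, linear from 0, a scale of its own in each panel) in the 3 WT and 3 Pbrm1 cKO libraries. Symbols are single libraries, the black mark is the mean with its SD, and the dashed line is 1 CPM. Oxtr, Chrm3 and Agtr1a sat higher and Adra1b, Adra1d and Adra2a lower in all 3 cKO libraries, while Adra1a, Adrb1 and Chrm2 stayed under the line in all 6.

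Oxtr, which encodes the receptor for the posterior pituitary peptide oxytocin, was the most abundant of the 9 in every library. The gene (ENSMUSG00000049112.9) lies on the minus strand of GRCm38 chromosome 6, 112473683 to 112489943. It was at 45.0, 46.7 and 43.4 CPM in WT replicates 1, 2 and 3, and at 60.1, 74.1 and 58.5 CPM in cKO replicates 1, 2 and 3. Every cKO library was above every WT library, and cKO replicate 2 stood highest. Means were 45.0 ± 1.65 CPM in WT against 64.3 ± 8.57 CPM in cKO, or 1.43-fold (SD, n = 3). The log2 fold change was 0.52 with an SE of 0.080 (edgeR adjusted p = 1.71e-04). A larger absolute change was measured in 19.7% of all tested genes. In bulk RNA such as this, fewer cells of a type and less RNA per cell cannot be told apart.

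Letters upstream of the starts of Oxtr and Adra1b are shown. These genes had the highest levels in WT and differed in opposite directions between the groups. Starts and sequences are from RefSeq (GRCm38.p6). Any base inside an exon of the gene in the count table or in GENCODE M21 was left out. For Oxtr this took out the 118 bases nearest the RefSeq start. Adra1b has an outer and an inner start, and the gene counts do not separate their transcripts.

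Oxtr, chr6:112489944-112490075, minus strand: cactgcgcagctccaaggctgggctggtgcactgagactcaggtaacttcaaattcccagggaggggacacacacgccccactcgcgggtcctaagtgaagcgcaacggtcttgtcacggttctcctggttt

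Adra1b outer start, chr11:43901238-43901487, minus strand: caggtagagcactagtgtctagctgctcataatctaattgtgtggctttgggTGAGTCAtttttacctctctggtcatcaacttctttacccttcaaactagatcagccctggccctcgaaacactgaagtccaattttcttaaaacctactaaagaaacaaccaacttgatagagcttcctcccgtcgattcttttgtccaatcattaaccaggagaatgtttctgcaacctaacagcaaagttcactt

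Adra1b inner start, chr11:43836490-43836739, minus strand: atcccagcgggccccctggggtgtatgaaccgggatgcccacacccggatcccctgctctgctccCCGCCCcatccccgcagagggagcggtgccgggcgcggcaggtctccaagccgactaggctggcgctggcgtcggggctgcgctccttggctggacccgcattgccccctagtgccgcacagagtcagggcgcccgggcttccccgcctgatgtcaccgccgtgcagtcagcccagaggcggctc

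Capitals mark motifs found on either strand: TGANTCA, the AP-1 site, before the outer Adra1b start, and GGGCGG, the GC box, on the opposite strand before the inner one. The AP-1 letters occurred in 6.75% and the GC box in 32.7% of 32851 promoter windows of 250 bases. The full window of Oxtr held 1 GC box, which is not within the printed stretch. The TATA box (TATAAA, in 12.4%), the cyclic AMP response element (TGACGTCA, 1.55%), the half-site of progesterone and glucocorticoid receptors (TGTTCT, 16.1%) and the CArG box of serum response factor (1.47%) did not occur in the 3 stretches, and no searched motif occurred in the Oxtr stretch of 132 bases. CpG pairs numbered 3 before the outer and 22 before the inner Adra1b start, against a median of 6 over all windows. No measurement of chromatin was used here, so these letters are a description only. For the other receptors above the filter, all 250 bases before the Adra2a start lie in an exon of that gene in GENCODE M21, and Adra1d and Agtr1a had no entry. Chrm3 had a stretch of 206 bases outside its exons, not printed here, with 10 CpG pairs and none of the searched motifs.

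The adrenergic receptors above the filter were all lower in cKO. Adra1b (ENSMUSG00000050541.14; GRCm38 chromosome 11, 43774606 to 43901210, minus strand), a Gq-coupled receptor for noradrenaline and adrenaline, was at 8.45, 8.71 and 8.08 CPM in WT. In cKO it was at 4.11, 4.24 and 3.92 CPM. The libraries of each group lay close together and far from the other group. Means were 8.41 ± 0.319 CPM in WT against 4.09 ± 0.160 CPM in cKO, which is 48.6% of the former (SD, n = 3). The log2 fold change was -1.04 with an SE of 0.12 (edgeR adjusted p = 1.16e-05). A larger absolute change was measured in 5.98% of tested genes.

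Adra2a (ENSMUSG00000033717.5; GRCm38 chromosome 19, 54045182 to 54048982, plus strand, a single exon in the table) encodes the Gi-coupled alpha-2A receptor, known also as the autoreceptor of adrenergic nerve endings. It was at 4.43, 3.69 and 4.57 CPM in WT and at 1.57, 1.70 and 1.80 CPM in cKO. The lowest WT library was above the highest cKO library by more than the spread of either group. Means were 4.23 ± 0.473 CPM in WT against 1.69 ± 0.114 CPM in cKO, which is 40.0% of the former (SD, n = 3). The log2 fold change was -1.32 with an SE of 0.18 (edgeR adjusted p = 4.94e-05). Among tested genes, 3.53% had a larger absolute change.

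Adra1d (ENSMUSG00000027335.9; GRCm38 chromosome 2, 131545850 to 131562283, minus strand) is a second Gq-coupled alpha-1 receptor. It was at 3.84, 2.51 and 2.52 CPM in WT and at 2.08, 1.27 and 2.32 CPM in cKO. The groups did not overlap, but the nearest libraries of the groups lay close together, WT replicate 1 stood above the other WT libraries and cKO replicate 2 below the other cKO libraries. Means were 2.96 ± 0.765 CPM in WT against 1.89 ± 0.547 CPM in cKO (SD, n = 3). The log2 fold change was -0.66 with an SE of 0.25 (edgeR adjusted p = 0.0468). The libraries held 43 to 65 counts of it in WT against 24 to 37 in cKO, and this call did not hold under 7 of 14 alternatives. The adjusted p was 0.221 without WT replicate 1 (log2 fold change -0.43), 0.0529 without WT replicate 3, 0.0702 without cKO replicate 1 and 0.166 without cKO replicate 2 (log2 fold change -0.42). It was 0.0828 with DESeq2, 0.0513 with limma-voom and 0.0532 when scaled by library size only. The exons of Adra1d share 147 bases with Gm14285 on the opposite strand, and reads were counted by strand.

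The remaining adrenergic genes were at or near the floor. Adra1a, the third alpha-1 receptor, had 2, 3 and 1 counts in WT against 3, 6 and 4 in cKO, at most 0.318 CPM. With no filter on low counts its edgeR adjusted p was 0.433, so a difference was not detectable at this depth. Adrb1, the Gs-coupled beta-1 receptor, had 1, 3 and 1 counts in WT and 1 count in each cKO library. Neither group exceeded 3 counts in any library, and its adjusted p with no filter was 0.755 (edgeR).

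Chrm3 (ENSMUSG00000046159.16; GRCm38 chromosome 13, 9875486 to 10360847, minus strand) encodes the Gq-coupled M3 receptor, through which acetylcholine contracts many smooth muscles. Its counts were 8, 8 and 13 in WT and 40, 28 and 21 in cKO, or 0.473, 0.428 and 0.761 CPM against 2.25, 1.49 and 1.35 CPM. All WT libraries were under 1 CPM and all cKO libraries above it, with cKO replicate 1 the highest. Means were 0.554 ± 0.181 CPM in WT against 1.70 ± 0.484 CPM in cKO, or 3.06-fold (SD, n = 3). The log2 fold change was 1.62 with an SE of 0.33 (edgeR adjusted p = 0.00125). The 95% interval of the log2 fold change ran from 0.91 to 2.32, the widest of the 6 receptors tested. Chrm2, the Gi-coupled M2 receptor, had 0 counts in 5 libraries and 1 count in cKO replicate 3. A count of 0 allows a level of up to 0.159 to 0.177 CPM in those 5 libraries, for counting error only.

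Agtr1a (ENSMUSG00000049115.15; GRCm38 chromosome 13, 30336441 to 30382867, plus strand) encodes the Gq-coupled type 1a receptor of angiotensin II. It was at 0.650, 0.962 and 0.820 CPM in WT and at 1.52, 2.02 and 1.42 CPM in cKO. WT libraries were all under and cKO libraries all above 1 CPM, and replicate 2 was the highest in each group. Means were 0.811 ± 0.156 CPM in WT against 1.65 ± 0.321 CPM in cKO, or 2.04-fold (SD, n = 3). The log2 fold change was 1.02 with an SE of 0.27 (edgeR adjusted p = 0.00793). Its transcripts share a stretch of at least 100 bases at 95% identity or more with Agtr1b, the closely related type 1b receptor, and reads that map to both places were not counted. Agtr1b had 0 counts in all 6 libraries.

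**Figure D2:**
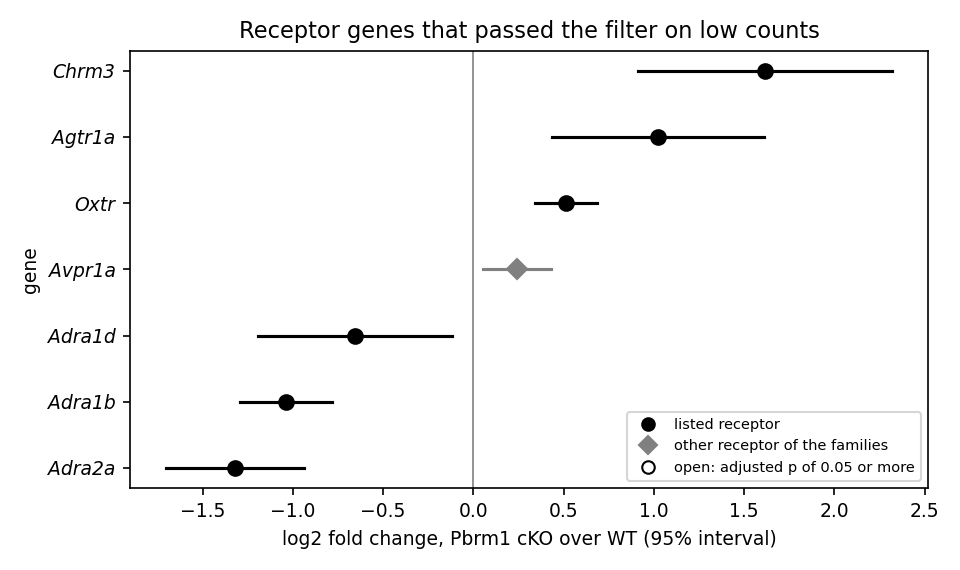
Log2 fold change of Pbrm1 cKO over WT (x axis) with its 95% interval for the 6 listed receptors that passed the filter and for Avpr1a, a receptor of the same families. Points left of 0 are lower in cKO. Adra2a at -1.32 and Chrm3 at 1.62 are the outermost points, and no interval shown crosses 0.

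Levels of different receptors were compared per length, as TPM (counts divided by exonic length and scaled to a common total). In WT the order of mean levels was Oxtr at 29.8 TPM, Adra1b at 7.88, Adra1d at 4.93, Adra2a at 3.52, Agtr1a at 0.922 and Chrm3 at 0.281 TPM, and the libraries of neighbours in this order did not overlap. In cKO the order was Oxtr at 41.8 TPM, Adra1b at 3.77, Adra1d at 3.10, Agtr1a at 1.84, Adra2a at 1.39 and Chrm3 at 0.845 TPM. There the ranges of Adra1b and Adra1d overlapped, as did those of Adra1d and Agtr1a. Agtr1a thus stood below Adra2a in all 3 WT libraries and above it in all 3 cKO libraries. Adra1a, Adrb1 and Chrm2 were the lowest of the 9 in both groups, at means of 0.118 TPM or less, and their order rests on a few counts.

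The summed level of the 9 genes was 47.5 ± 1.59 TPM in WT and 52.9 ± 5.04 TPM in cKO (SD, n = 3; exact permutation p = 0.1, the smallest that 3 against 3 libraries can give). Oxtr made up 60.9%, 64.5% and 62.8% of the sum in WT and 77.4%, 82.0% and 77.0% in cKO. The share of Adra1b was 16.6% ± 0.433 in WT and 7.15% ± 0.439 in cKO, and that of Adra2a was 7.44% ± 0.960 and 2.64% ± 0.318. Agtr1a took 1.95% ± 0.396 in WT and 3.47% ± 0.330 in cKO, and Chrm3 took 0.596% ± 0.216 and 1.61% ± 0.526 (SD, n = 3 for each). The groups did not overlap for any of these shares, and each gave the smallest two-sided exact permutation p of 0.1, so none could reach 0.05 in this design.

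By family, the 3 alpha-1 receptors together were at 12.9 ± 1.32 TPM in WT and 6.96 ± 0.748 TPM in cKO, without overlap (SD, n = 3; exact permutation p = 0.1). The level of Oxtr relative to the sum of the 5 adrenergic receptors was 1.64, 1.97 and 1.83 in WT and 4.54, 6.37 and 4.20 in cKO. The lowest cKO ratio was above the highest WT ratio (exact permutation p = 0.1, the smallest possible).

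**Figure D3:**
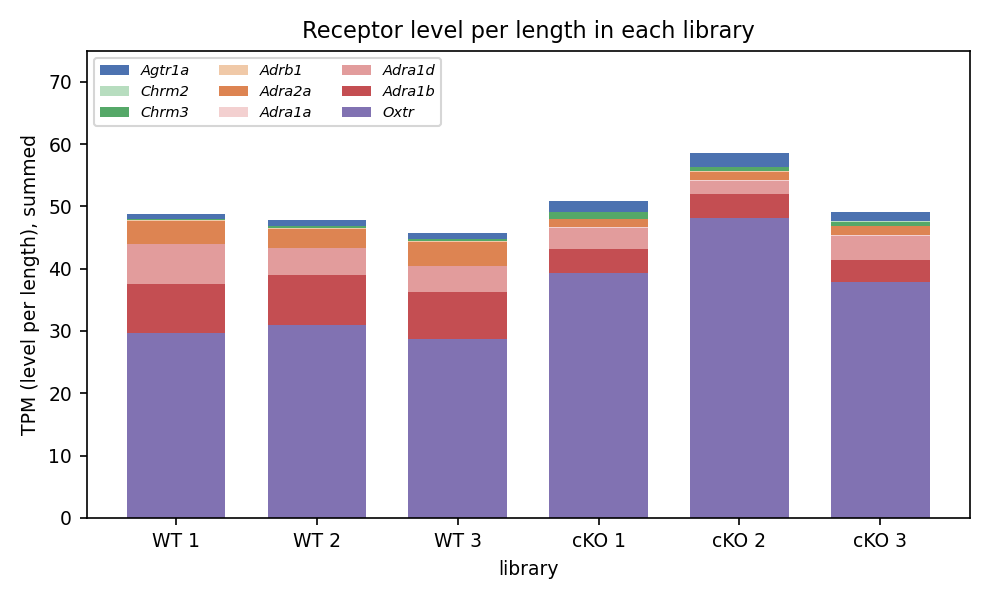
Summed level per length of the 9 receptor genes in each library (y axis, TPM from 0; x axis, library), each bar divided by gene. Oxtr, the lowest segment, is 29.8 TPM on average in WT and 41.8 TPM in cKO, while the red alpha-1 segments sum to 12.9 and 6.96 TPM.

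Markers of the cell types that the preparation could hold moved too, and their part in the receptor results was not tested. Calls were common throughout, at 43.7% of all tested genes (21.9% higher and 21.8% lower). Beside this, the share called ran from 37.5% of tested endothelial markers to 100% of tested pericyte markers. The 8 smooth muscle markers, all above the filter, summed to 3470 to 3542 CPM in WT and 4246 to 4737 CPM in cKO, with 5 higher and 1 lower. Leukocyte markers summed to 706 to 755 CPM in WT and 1031 to 1114 CPM in cKO, with 8 of 9 tested higher. Fibroblast markers summed to 3499 to 4083 and 4747 to 5171 CPM (5 higher and 1 lower of 8), and epithelial markers to 878 to 954 and 1093 to 1219 CPM (6 higher of 8). Pericyte markers, from 105 to 123 and from 90.2 to 111 CPM, had 4 of 5 tested members higher and 1 lower, Cspg4, the most abundant. Endothelial markers summed to 356 to 376 and 300 to 311 CPM (2 higher and 1 lower of 8), and mesothelial markers to 199 to 209 and 152 to 153 CPM (3 lower of 5). Neuronal and glial markers summed to 7.54 to 9.02 and 10.2 to 14.0 CPM (1 higher of 2 tested), and those of interstitial pacemaker cells to 37.1 to 38.0 and 33.5 to 39.4 CPM (2 higher of 3). No marker of any list was at 0 in all libraries.

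Because the smooth muscle markers were higher in cKO as a sum, the test was also run with each library scaled to their summed counts. This alternative was chosen after seeing the data. The scale rests mostly on Tagln and Acta2, at means of 1598 and 1287 CPM in WT, where the whole sum averaged 3513 CPM. Single markers differed, from 0.82-fold for Smtn to 2.31-fold for Des, and Cnn1 and Actg2 were not called. On this scale the log2 fold changes shifted as a whole, from a median of 0.0016 to one of -0.37, and the share of calls that were higher went from 50.2% to 9.81%. Of 15376 genes tested, 1021 were called higher and 9383 lower on it. Oxtr then had a log2 fold change of 0.15 (edgeR adjusted p = 0.214) and Agtr1a one of 0.66 (edgeR adjusted p = 0.0542), so both calls were lost. Chrm3 stayed higher at 1.25 (edgeR adjusted p = 0.00306), and Adra1b at -1.40, Adra1d at -1.03 and Adra2a at -1.68 stayed lower. Relative to the muscle markers, a higher Oxtr level was not shown. The lower adrenergic levels were not put to a test by this scaling, because it moved log2 fold changes downward as a whole.

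**Figure D4:**
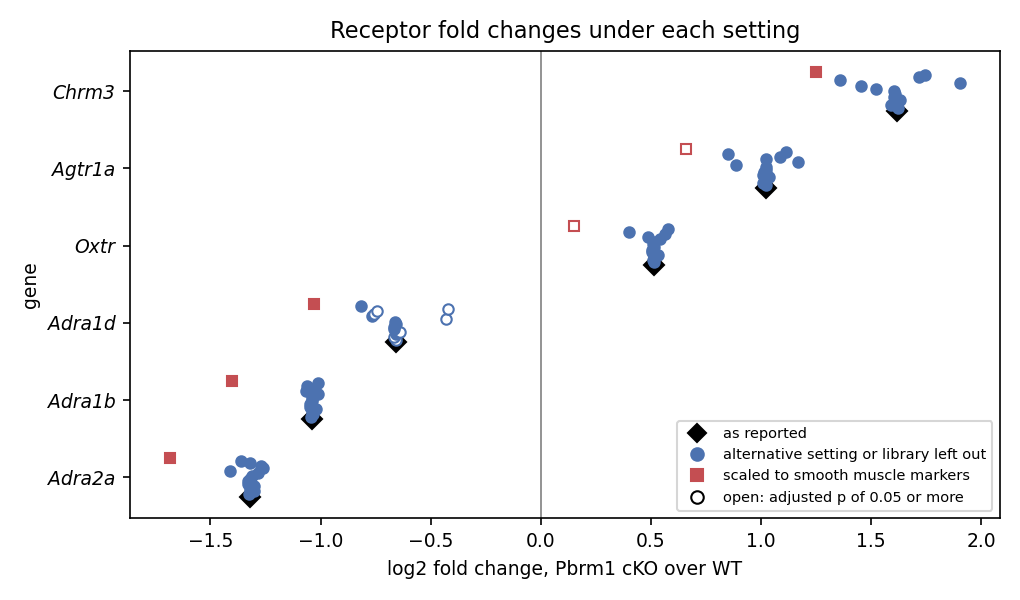
Log2 fold change of Pbrm1 cKO over WT (x axis) for the 6 tested receptors as reported (black diamonds), under the alternative settings and with single libraries left out (blue circles), and scaled to smooth muscle markers (red squares), with open symbols at an adjusted p of 0.05 or more. No receptor crosses 0, Adra1d has open symbols under 7 alternatives, and the red squares of Oxtr and Agtr1a are open.

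Other receptors of the same families were scarce. Of 13 listed, 2 passed the filter and 1 was called, beside 43.7% of all tested genes. Avpr1a, the V1a vasopressin receptor, which also binds oxytocin, was at 14.4, 13.2 and 12.7 CPM in WT and at 16.7, 15.0 and 15.9 CPM in cKO. The groups did not overlap but lay near each other (log2 fold change 0.24 with an SE of 0.088, edgeR adjusted p = 0.0395), and scaled to smooth muscle markers the sign turned, at -0.13 (edgeR adjusted p = 0.248). It was not called with DESeq2 (adjusted p = 0.120) and, in edgeR, with no filter (0.0752), without WT replicate 2 (0.114), WT replicate 3 (0.134), cKO replicate 1 (0.139) or cKO replicate 3 (0.0779). Adrb3, Chrm5, Agtr1b and Mas1 had 0 counts in all libraries, and 7 more receptors under the filter had at most 14 counts in any library.

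Genes that make, carry or clear the ligands of these receptors were tested where present: 13 of 23 passed the filter, 5 were higher and 1 lower (46.2% called, beside 43.7% of all tested genes), with a median log2 fold change of 0.03. Scaled to smooth muscle markers, 4 were higher and 7 lower, with a median of -0.33. Avp, Th, Pnmt and Slc18a3, which mark cells that make vasopressin, catecholamines or acetylcholine, had 0 counts in all libraries, and Oxt and Chat, the acetylcholine synthase, each had 1 count in 1 library. Dbh, the enzyme that makes noradrenaline, named after its values were seen, had 7, 12 and 16 counts in WT and 3, 12 and 2 in cKO. The groups overlapped and it did not pass the test (log2 fold change -1.02, edgeR adjusted p = 0.140). On the angiotensin side, Agt, the precursor of angiotensin, averaged 1.93 ± 0.280 CPM in WT against 4.05 ± 0.169 CPM in cKO (log2 fold change 1.07, edgeR adjusted p = 2.27e-04). Enpep, the aminopeptidase that degrades angiotensin II, was at 16.0, 15.4 and 17.6 CPM in WT and at 48.2, 36.3 and 49.1 CPM in cKO (log2 fold change 1.44 with an SE of 0.11, edgeR adjusted p = 2.65e-07). Both were higher in every cKO library, and both stayed higher when scaled to smooth muscle markers, at 0.71 and 1.07. Ace, which forms angiotensin II, had a log2 fold change of -0.19 and did not pass the test (edgeR adjusted p = 0.158).

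On the catecholamine side, Slc6a2, the noradrenaline transporter, was at 19.0, 19.2 and 19.0 CPM in WT and at 40.8, 30.7 and 37.5 CPM in cKO (log2 fold change 0.93 with an SE of 0.094, edgeR adjusted p = 4.02e-06). The WT libraries were nearly equal and all cKO libraries stood well above them, and scaled to smooth muscle markers the change was 0.55 (edgeR adjusted p = 4.37e-05). Maob, an enzyme that degrades monoamines, was also higher, at a log2 fold change of 1.49 (edgeR adjusted p = 0.00129), or 1.13 when scaled to smooth muscle markers. Ddc, a decarboxylase of amine synthesis, was lower (log2 fold change -0.38, edgeR adjusted p = 0.0396). The Ddc call was lost with DESeq2 (adjusted p = 0.106) and without WT replicate 1 (0.134), WT replicate 3 (0.107), cKO replicate 1 (0.0988) or cKO replicate 2 (0.110).

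All 26 genes listed for signaling below Gq/11 and G12/13 passed the filter. Of these, 9 were higher and 5 lower (53.8% called, beside 43.7% of all tested genes), with a median log2 fold change of 0.07. On the scale of the muscle markers, 0 were higher and 17 lower, with a median of -0.29. Gnaq and Gna11, the main alpha subunits of the family, had log2 fold changes of -0.11 and -0.01 and did not pass the test (edgeR adjusted p = 0.224 and 0.845). Gna14, a related subunit, was higher at 0.84 (edgeR adjusted p = 0.0124, or 0.0502 without WT replicate 3). Plcb1, a phospholipase C, was higher at 0.63 (edgeR adjusted p = 0.00957). Neither passed the test when scaled to smooth muscle markers, at 0.47 for Gna14 and 0.25 for Plcb1 (edgeR adjusted p = 0.101 and 0.182).

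All 3 IP3 receptor genes, whose products are the calcium channels of the stores, were lower. Itpr2 was at 32.3, 27.1 and 27.8 CPM in WT and at 19.8, 21.1 and 17.8 CPM in cKO (log2 fold change -0.57 with an SE of 0.087, edgeR adjusted p = 1.52e-04). Itpr3 had a log2 fold change of -0.37 and Itpr1, the most abundant of the 3, one of -0.26 (edgeR adjusted p = 8.93e-04 and 7.39e-04). The groups did not overlap for any of these 3 genes, and scaled to smooth muscle markers the changes were -0.93 for Itpr2, -0.74 for Itpr3 and -0.63 for Itpr1. Among protein kinase C genes, Prkca was lower at -0.29 (edgeR adjusted p = 4.89e-04) and Prkcb higher at 0.32 (edgeR adjusted p = 0.0356). The Prkcb call was lost with DESeq2 (adjusted p = 0.118) and, in edgeR, with no filter (0.0585), without WT replicate 2 (0.0597), WT replicate 3 (0.142), cKO replicate 1 (0.0820) or cKO replicate 2 (0.0689). Arhgef25, an exchange factor that links Gq to RhoA, was higher at 0.36 (edgeR adjusted p = 2.56e-04). Against the muscle markers, Prkcb was at -0.046 and Arhgef25 at -0.0096, both without a call, and Prkca at -0.66.

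Of the 7 alpha subunits of the Gi and Gs families, all above the filter, 2 were higher (28.6% called, beside 43.7% of all tested genes). These were Gnas, the subunit through which beta receptors act, at a log2 fold change of 0.21, and Gnai2, a partner of alpha-2 and M2 receptors, at 0.18 (edgeR adjusted p = 0.00117 and 0.00680). Both turned lower when scaled to smooth muscle markers, at -0.16 for Gnas (edgeR adjusted p = 0.0538) and -0.19 for Gnai2 (edgeR adjusted p = 0.0135). The median of the list was -0.01, or -0.37 on that scale, with 0 higher and 4 lower.

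Genes that switch receptors off showed the largest median change of the pathway lists, at a log2 fold change of 0.56 over 8 genes tested. Of these, 6 were higher and 1 lower (87.5% called, beside 43.7% of all tested genes, 21.9% higher). The number called fell to 4 without WT replicate 2 and to 4 without cKO replicate 1. The lists were chosen with earlier results of these data known, so this share is not independent evidence. Scaled to smooth muscle markers, 3 were higher and 2 lower, with a median of 0.19. Grk3, a kinase that phosphorylates active receptors, was at 9.57, 8.66 and 7.67 CPM in WT and at 19.0, 13.6 and 16.9 CPM in cKO (log2 fold change 0.93 with an SE of 0.13, edgeR adjusted p = 6.07e-05). Arrb2, an arrestin that uncouples and internalizes receptors, averaged 19.9 ± 0.101 CPM in WT against 33.4 ± 1.25 CPM in cKO (log2 fold change 0.75, edgeR adjusted p = 1.08e-06). Its partner Arrb1 was higher at 0.38 (edgeR adjusted p = 3.26e-04), but at 0.01 when scaled to smooth muscle markers (edgeR adjusted p = 0.908). Agtrap, which binds the type 1 angiotensin receptor and promotes its internalization, averaged 14.7 ± 1.23 CPM in WT against 27.1 ± 3.11 CPM in cKO (log2 fold change 0.88, edgeR adjusted p = 8.20e-06). Grk3, Arrb2 and Agtrap stayed higher on that scale, at 0.56, 0.38 and 0.51. Grk2, the most abundant kinase of the list besides Grk6, had a log2 fold change of -0.07 (edgeR adjusted p = 0.314).

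The other calls among receptor kinases depended on single libraries or on the scaling. Grk4, with a mean of 0.728 ± 0.246 CPM in WT against 1.29 ± 0.260 CPM in cKO, was higher at 0.84 (edgeR adjusted p = 0.0418). Its adjusted p was 0.138 with DESeq2, 0.0570 with the replicate number as a block, 0.167 without WT replicate 2, 0.120 without WT replicate 3, and 0.0559, 0.149 and 0.0546 without cKO replicates 1, 2 and 3. Grk5 was higher at 0.30 (edgeR adjusted p = 0.0148), with 0.0623, 0.0510 and 0.0745 without WT replicate 2, WT replicate 3 and cKO replicate 1. Grk6 was lower at -0.13 (edgeR adjusted p = 0.0334), with 0.0682 in DESeq2, 0.0537 by library size only, and 0.121, 0.0818 and 0.152 without WT replicate 1, WT replicate 2 and cKO replicate 1. With the muscle markers as the scale, Grk5 was at -0.067 and Grk4 at 0.48, both without a call, and Grk6 at -0.50.

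**Figure D5:**
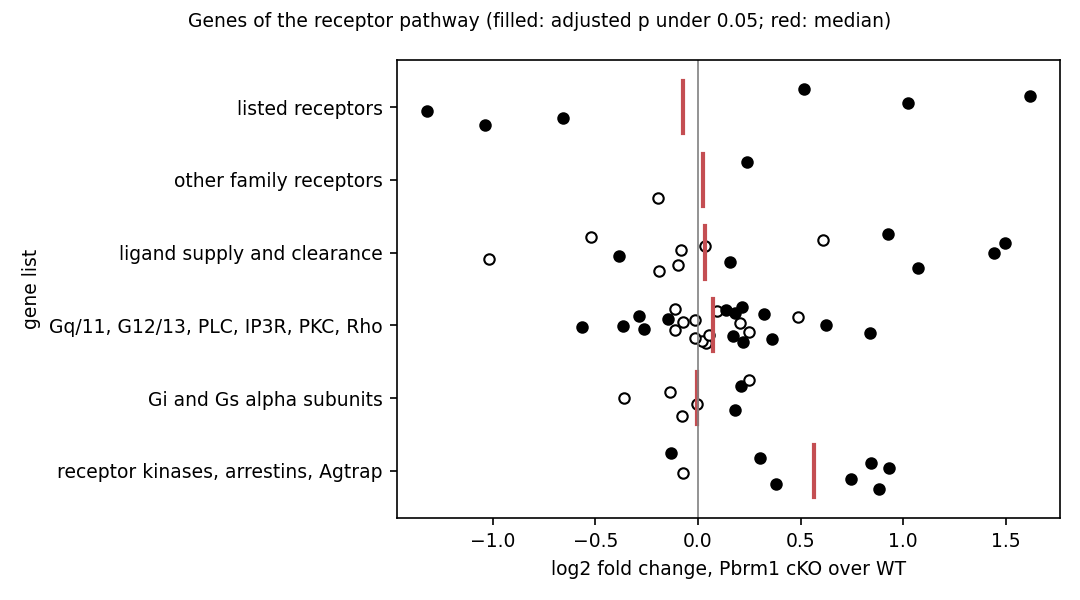
Log2 fold change of Pbrm1 cKO over WT (x axis) of each tested gene of the receptor lists and of the lists of ligand supply, G proteins and effectors, and receptor kinases and arrestins (rows). Filled points passed an adjusted p of 0.05 and the red bar is the median of a row, which is 0.56 for kinases and arrestins and between -0.07 and 0.07 for the other rows. Scaled to smooth muscle markers the medians are 0.19 for kinases and arrestins and -0.29 or lower for the others.

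The genes whose CPM followed each receptor most closely across the 6 libraries are given as a description, by Pearson's r of log2 CPM over genes of mean 5 CPM or more. The groups stand apart in most of these genes, so a high r partly restates the difference between the groups. Oxtr was followed most closely by Pdgfrb, a platelet-derived growth factor receptor of muscle and stromal cells, with r = 0.998, then by Stx18 and Mob3a. Adra1b was followed by Baz1a and Purb, and 973 genes reached an r over 0.95 with it. Adra2a was followed by Usp38, Cdk1 and Cip2a, with 768 such genes, and Adra1d by Hist1h4a and Jund, with 15. Chrm3 was followed by Cadm1, Nt5c and Mbd2, and Agtr1a by Gclm, Phc1 and Dnase2a, with 188 and 131 such genes.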

How the data were processed

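RNA-seq of 3 WT and 3 Pbrm1 cKO preparations was analysed. Per the labels and the file headers, the authors trimmed reads with cutadapt, aligned them with HISAT2 to GRCm38.p5 and deposited raw counts per gene from featureCounts 1.6.4 (reverse-stranded, GENCODE M18 exons), which drops reads that map to several places. Symbols from GENCODE M21 matched 54079 of 54232 genes. Groups were compared in R 4.3.3 by the two-sided quasi-likelihood test of edgeR 4.0.16, after TMM normalization and filterByExpr and with no covariate. P-values of 15376 genes were adjusted by Benjamini-Hochberg, and 0.05 was the threshold. CPM use TMM factors, and TPM are counts per exonic length scaled to a common total. The scripts were tested on simulated data. Floors cover counting error only. Intervals come from the edgeR fit, which also includes an estimate of the variation between libraries. Named genes were all 9 receptors, relatives above 1 CPM, up to 8 called genes per pathway list and the 3 closest patterns per receptor. A few genes that this rule names are not reported here. The members and lists were chosen with earlier results of these data known. Alternatives were DESeq2 1.42.0, limma-voom (limma 3.58.1), other scalings and filters, a replicate block and leaving out each library. Near-copies were found with BLAST 2.17.0. Every pair of libraries of a group differed by more than sampling noise (chi-square per gene 1.31 to 1.60).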

Additional observations from a re-analysis of the deposited data

How the results depend on the processing

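Under the settings listed in the methods, no named gene changed direction. The calls of Oxtr, Adra1b, Adra2a and Agtr1a held under 14 other settings, leaving out each library among them, and that of Chrm3 under the 13 that kept it; 10 counts in every library removed Chrm3. Scaled to smooth muscle markers (chosen after seeing the data), 1 receptor was called higher, 11 ligand genes and 4 Gi and Gs subunits were called, and log2 fold changes turned negative for Avpr1a (-0.13), Arhgef25 (-0.0096), Prkcb (-0.046), Gnas (-0.16), Gnai2 (-0.19) and Grk5 (-0.067). The list of other family receptors had 0 calls with DESeq2 and with no filter, and 0 to 1 when 1 library was left out; the list of kinases and arrestins then had 4 to 6. By CPM in place of TPM, ranks in WT were 4 for Adra1d, 3 for Adra2a, 8 for Adrb1 and 7 for Adra1a, and in cKO 6 for Agtr1a and 4 for Chrm3. Of 321 values for 23 other named genes, 33 lost their call, 24 of them by leaving out a library, with that scaling left aside. Replicate numbers did not pair the libraries (correlations of deviations -0.03, 0.04 and 0.11); with the replicate block 6908 genes were called in place of 6723, 6617 of them shared, and among named genes the Grk4 call was lost. Adrb1 and Chrm2, at 3 counts or fewer, were too low for a difference to be detectable.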
